A study of Canis lupus familiaris and Dasypus novemcinctus and Ornithorhynchus anatinus with 3 samples.

Results

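Relaxin, oxytocin and prolactin-type hormones and their receptors were described in messenger RNA from the lining of the uterus (endometrium) of a pregnant dog, armadillo and platypus. The group held 8 genes of 20224 distinct gene names in the 3 tables. They were the dog relaxin entry RELX_CANFA, the relaxin-family receptor genes RXFP1 and RXFP2, the oxytocin receptor gene OXTR, the gap junction gene GJA1, the prolactin gene PRL and the receptor genes PRLR and GHR. They were chosen by gene symbol for their part in pregnancy and in contraction of the uterus, with earlier results of these data known. By this rule 6 of the 8 were listed in the dog table, 5 in the armadillo table and 7 in the platypus table. Dog GHR and RXFP2 carried a UniProt entry name in place of a symbol, and their values are given with that limit.

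Dog and armadillo are placental mammals, and platypus lays eggs. Each species was represented by 1 library, labelled only as pregnant endometrium. The labels name no stage of pregnancy, age, strain or number of animals. Every value below is therefore a single measurement with no replicate check, and no p-value was computed.

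Relaxin is a peptide hormone of pregnancy that softens connective tissue and acts on the uterus through RXFP1, a receptor that raises cyclic AMP. In the dog the placenta is its main source. Oxytocin acts through OXTR, which releases calcium through the Gq protein and phospholipase C and makes the smooth muscle of the uterus contract. GJA1 encodes connexin 43, whose channels couple neighbouring cells and let contraction spread. Prolactin and growth hormone act through PRLR and GHR, related receptors that signal through the kinase JAK2 and STAT5 transcription factors, and the human decidua makes prolactin itself.

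The dog library held 13625468 reads, the armadillo library 13218476 and the platypus library 2243556. Reads scaled to these totals are given as CPM, with exact Poisson 95% intervals that cover counting error only. Because CPM ignores gene length, unequal gene models also enter a ratio between species. Where 0 reads were counted, up to 3 remain possible, which is 0.220 CPM for dog, 0.227 CPM for armadillo and 1.34 CPM for platypus. Genes listed at 0 made up 21.8% of the dog table and, in platypus, 42.4% of all rows, general cell genes among them, so such a gene is described only as listed at 0. The armadillo table lists only genes with reads, so a member missing from it was not analysed there and is not taken as 0.

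Markers of the other cell types of the uterine wall differed widely between the libraries. The smooth muscle markers summed to 88.6 CPM in dog (5 of 7 listed), 25124 CPM in armadillo (4 of 7) and 16580 CPM in platypus (5 of 7), with none listed at 0. The epithelial markers summed to 2541 CPM in dog (3 of 6 listed), 837 CPM in armadillo (5 of 6) and 6.69 CPM in platypus (4 of 6, ST14 at 0), so that epithelium, a defining part of endometrium, was low by these markers in platypus. The trophoblast markers summed to 20.0 CPM in dog (4 of 6 listed), 55.0 CPM in armadillo (5 of 6) and 12.5 CPM in platypus (6 of 6, with GCM1, TFAP2C, CYP19A1 and ELF5 at 0). Of the dog sum, 16.2 CPM was GATA3, which was not analysed in armadillo. Over ELF5, HAND1 and TFAP2C, the markers matched between dog and armadillo, the sum was 3.74 CPM in dog and 54.5 CPM in armadillo. In bulk tissue, fewer cells of a type and less RNA per cell cannot be told apart.

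In each library 3 members reached 2 CPM. They were RELX_CANFA, RXFP1 and OXTR in dog, GJA1, PRLR and GHR in armadillo, and RXFP1, GJA1 and GHR in platypus. Of all genes listed in dog, 58.3% stood at that level, beside 81.5% of the armadillo genes and 45.9% of the platypus genes. The armadillo share is over genes with reads only, so it is not on the same footing as the other shares. No member reached 2 CPM in all 3 libraries by its symbol, and with its dog entry name GHR did.

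**Figure D1:**
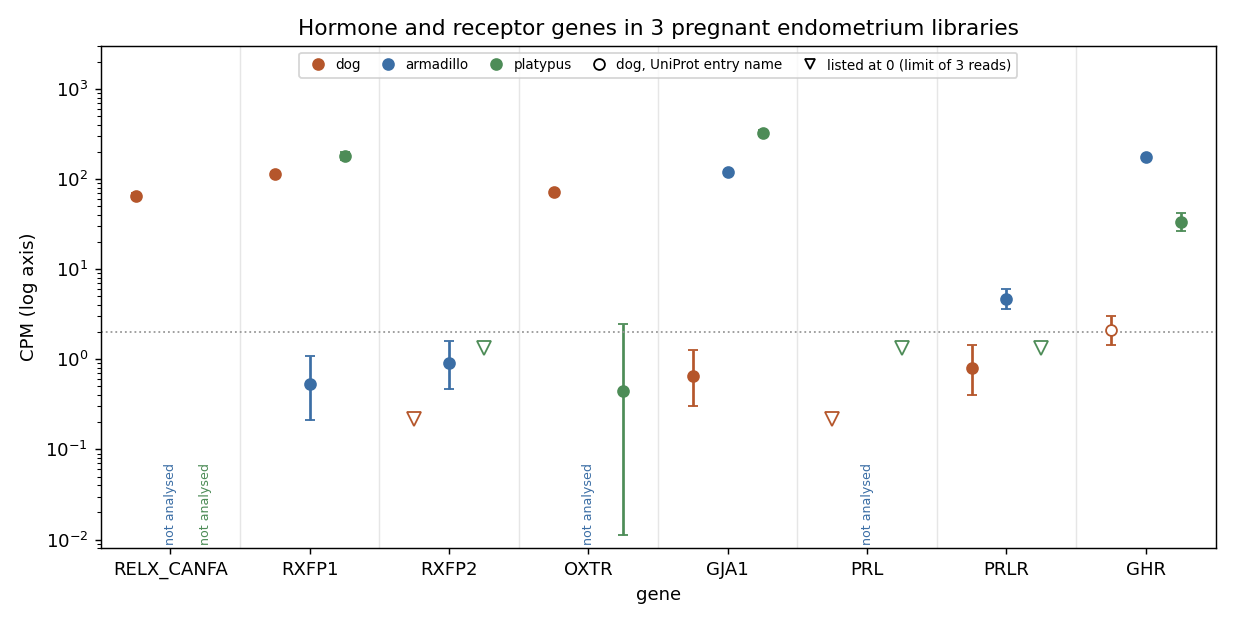
CPM (log axis) of each gene in the dog, armadillo and platypus libraries, 1 library each, with bars for the exact Poisson 95% interval. Open triangles mark genes listed at 0 and stand at the limit of 3 reads, open circles mark dog genes found under a UniProt entry name, and the dotted line is 2 CPM. RXFP1 is above 100 CPM in dog and platypus and near 0.5 CPM in armadillo, whereas GJA1 is above 100 CPM in armadillo and platypus and below 1 CPM in dog.

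Relaxin was matched in the dog table alone, as RELX_CANFA (ENSCAFG00000002115), and was not analysed in armadillo or platypus. It had 882 reads, equal to 64.7 CPM (95% interval 60.5 to 69.1). The dog table also gives the authors' relative abundance, in which reads are divided by gene length, so that genes can be ordered within that library. By this measure relaxin stood at 57.8 (95% interval 54.0 to 61.7), above 91.4% of all dog genes and first among the members. The other relaxin-family hormone genes listed in dog were at or near 0: INSL6 had 10 reads (0.734 CPM) and INSL3, under its entry name, was listed at 0. The trophoblast markers given above summed to 20.0 CPM in the same library, of which GATA3 gave 16.2 CPM. CYP19A1, under its entry name, was listed at 0. The part of these markers in the relaxin level was not tested.

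RXFP1, the relaxin receptor gene, had 1546 reads in dog (ENSCAFG00000008672), 7 reads in armadillo (ENSDNOG00000001016) and 404 reads in platypus (ENSOANG00000005387). Its levels were 113 CPM in dog (95% interval 108 to 119), 0.530 CPM in armadillo (0.213 to 1.09) and 180 CPM in platypus (163 to 199). Dog and platypus were thus both high and armadillo low, and the ligand and its receptor were both detected in the dog library.

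The ratio of RXFP1 CPM was 214-fold in favour of dog over armadillo (95% interval 104 to 534). Between dog and platypus, platypus was 1.59-fold higher (95% interval 1.42 to 1.77), which lay below the 4-fold limit used to call a difference. Platypus was also 340-fold higher than armadillo (95% interval 164 to 851). Of the 816 matched genes at 50 CPM or more in dog and platypus, 8 (0.980%) had less than 1 CPM in armadillo. These limits were set after the values were seen. Genes without armadillo reads are missing from the armadillo table and thus from both counts. The share can therefore be too low, and it does not show that the RXFP1 profile was rare. By the same limits, the tables that keep such genes gave 17.3% with platypus low (225 of 1302) and 2.99% with dog low (22 of 735).

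RXFP2, the receptor of the related hormone INSL3, had few or no reads in each library. It was listed at 0 in dog under its entry name, had 12 reads in armadillo (0.908 CPM, 95% interval 0.469 to 1.59) and was listed at 0 in platypus. At the platypus depth the armadillo level would amount to 2.04 reads, within the limit that a count of 0 allows, so a difference was not detectable there. Among the other relaxin-family receptors, RXFP4 had 31 reads in armadillo (2.35 CPM) and RXFP3 was listed at 0 in platypus.

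OXTR, the oxytocin receptor gene, had 975 reads in dog (ENSCAFG00000005553) and 1 read in platypus (ENSOANG00000007720), and was not analysed in armadillo. These counts equal 71.6 CPM in dog (95% interval 67.1 to 76.2) and 0.446 CPM in platypus (0.0113 to 2.48), a ratio of 161-fold in favour of dog (95% interval 28.7 to 6348). At the platypus depth the dog level would amount to 161 reads.

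A level of 50 CPM or more in dog beside less than 1 CPM in platypus was not rare, however. It was found for 581 of the 2789 matched genes at 50 CPM or more in dog (20.8%), by limits set after the values were seen. The high dog level of OXTR stood beside low smooth muscle markers: over the 3 markers matched between dog and platypus (MYH11, CNN1 and MYL9) the sum was 24.0 CPM in dog and 4287 CPM in platypus. It stood beside high epithelial markers: over EPCAM, KRT7 and ST14 the sum was 2541 CPM in dog and 2.67 CPM in platypus. The part of either cell type in the OXTR result was not tested.

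The oxytocin gene OXT itself was listed at 0 in dog. The vasopressin receptor gene AVPR1A had 10 reads in dog (0.734 CPM), 1 read in armadillo (0.0757 CPM) and was listed at 0 in platypus. LNPEP, which encodes the peptidase that degrades oxytocin, was low in dog, with 1.69 CPM in dog, 46.1 CPM in armadillo and 8.47 CPM in platypus, so that armadillo was called higher than dog and higher than platypus.

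GJA1, the connexin 43 gene, had 9 reads in dog (ENSCAFG00000024046), 1573 reads in armadillo (ENSDNOG00000007333) and 722 reads in platypus (ENSOANG00000003395). Its levels were 0.661 CPM in dog (95% interval 0.302 to 1.25), 119 CPM in armadillo (113 to 125) and 322 CPM in platypus (299 to 346). Dog was thus low and the other libraries high, with no overlap between the intervals.

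Armadillo had 180-fold more GJA1 than dog (95% interval 94.7 to 395) and platypus 487-fold more than dog (95% interval 255 to 1070). Platypus exceeded armadillo by 2.70-fold (95% interval 2.47 to 2.96), below the 4-fold limit. The dog relative abundance and read count of GJA1 imply a gene model of 651 bases, and whether this model covers the whole gene was not tested. Per length it stood at 0.626 (95% interval 0.286 to 1.19), above 39.1% of all dog genes.

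GJA1 and the smooth muscle markers were both lower in dog in the dog comparisons. Over MYH11 and TAGLN, the markers matched between dog and armadillo, the sum was 23.3 CPM in dog and 21802 CPM in armadillo, and the sums against platypus are given above. Between armadillo and platypus GJA1 was higher in platypus, and the matched smooth muscle markers disagreed among themselves. MYH11 had 10803 CPM in armadillo and 277 CPM in platypus, and DES 3160 and 992 CPM. ACTA2 went the other way, with 161 CPM in armadillo and 11301 CPM in platypus. Their sums, 14125 CPM in armadillo and 12570 CPM in platypus, therefore rest mostly on different genes. The matched stromal markers COL3A1 and LUM (626 CPM in dog, 7956 CPM in armadillo) were also lower in dog than in armadillo. So were the matched endothelial markers ESAM and PLVAP (77.1 and 7713 CPM). The stromal list did not all agree. Under their dog entry names, DCN was lower in dog (67.1 and 1668 CPM), whereas COL1A1 was higher in dog (2668 and 1895 CPM). Against platypus the matched endothelial markers CDH5, ESAM and PLVAP were higher in dog, with ESAM and PLVAP listed at 0 in platypus. The part of smooth muscle or of other cell types in the GJA1 result was not tested. A level below 1 CPM in dog with 50 CPM or more in armadillo and platypus was found for 22 of the 735 matched genes at 50 CPM or more in armadillo and platypus (2.99%), by limits set after the values were seen.

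Other connexin genes took other levels. GJB1 (connexin 32), typical of epithelia such as liver, had 41.8 CPM in dog, 0.454 CPM in armadillo and 58.8 CPM in platypus, the same order as RXFP1. GJB6 (connexin 30) had 53.7 CPM in dog and 3.57 CPM in platypus and was called higher in dog. GJA5 (connexin 40), known from arteries, had 54.8 CPM in armadillo and was listed at 0 in platypus, and in dog, under its entry name, it had 4 reads (0.294 CPM).

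Per length, GJB6 led the connexins of the dog library with a relative abundance of 47.8 (95% interval 44.4 to 51.4), followed by GJB1 at 30.3 (27.9 to 32.9) and GJC1 (connexin 45), under its entry name, at 4.30 (3.54 to 5.17). GJA1 was below these, and its interval overlapped those of GJB5, GJA4 and GJA5. TJP1 (ZO-1), a scaffold protein that binds connexins, stood at 36.8 under its entry name.

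**Figure D2:**
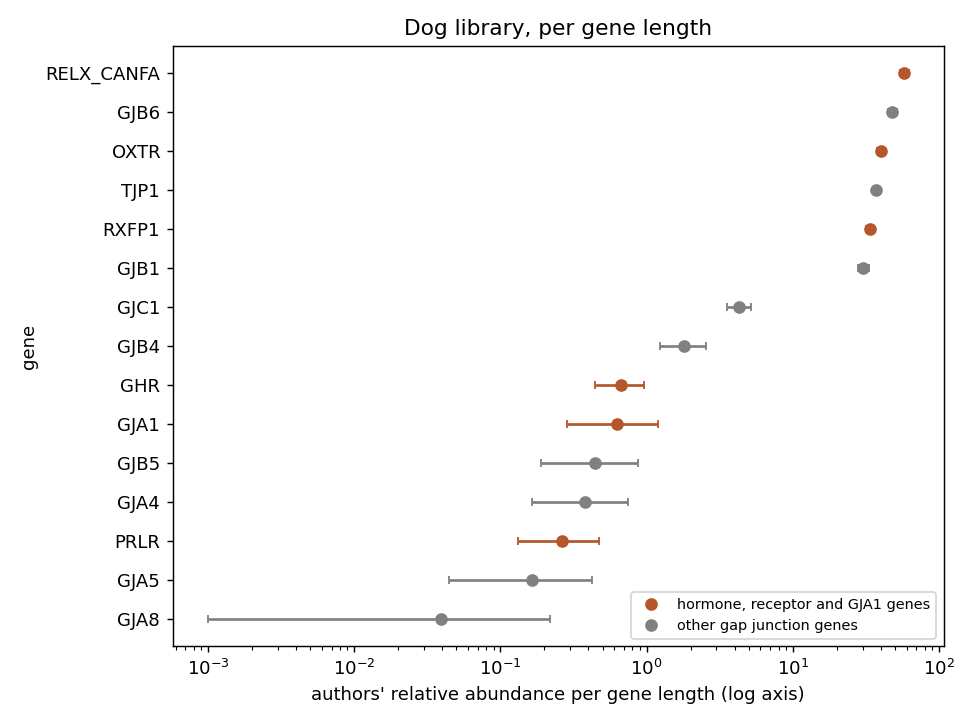
Relative abundance per gene length (log axis) in the dog library for the members with reads and for other gap junction genes with reads, with 95% counting intervals. Relaxin is at the top at 57.8, OXTR and RXFP1 follow at 40.0 and 33.5 among GJB6, TJP1 and GJB1, and GHR, GJA1 and PRLR all lie below 1.

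PRLR had few reads in dog and was listed at 0 in platypus. PRL, the prolactin gene, was listed at 0 in dog (ENSCAFG00000010247) and in platypus (ENSOANG00000011127) and was not analysed in armadillo. PRLR, its receptor gene, had 11 reads in dog (ENSCAFG00000018782), 62 reads in armadillo (ENSDNOG00000017999) and 0 in platypus (ENSOANG00000014529). The levels were 0.807 CPM in dog (95% interval 0.403 to 1.44) and 4.69 CPM in armadillo (3.60 to 6.01), so that armadillo was the highest of the libraries.

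Armadillo PRLR was 5.81-fold above dog (95% interval 3.03 to 12.2) and at least 3.51-fold above platypus, taking the armadillo count as observed and 3 reads as the limit for the platypus library. The exact 95% interval of the armadillo over platypus ratio, which also covers the counting error in armadillo, began at 2.77. Neither difference was called, because no library reached 5 CPM, and against dog the log2 fold of CPM + 1 was -1.65 for dog over armadillo. At the platypus depth the dog level would amount to 1.81 reads, so dog and platypus could not be told apart.

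GHR, the growth hormone receptor gene, was highest in armadillo. It had 29 reads in dog under its entry name (ENSCAFG00000018579), 2315 reads in armadillo (ENSDNOG00000008768) and 75 reads in platypus (ENSOANG00000015024). The levels were 2.13 CPM in dog (95% interval 1.43 to 3.06), 175 CPM in armadillo (168 to 182) and 33.4 CPM in platypus (26.3 to 41.9), with no overlap between the intervals.

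Armadillo exceeded platypus by 5.24-fold (95% interval 4.16 to 6.68) in GHR and exceeded dog by 82.3-fold (95% interval 57.1 to 123). Platypus exceeded dog by 15.7-fold (95% interval 10.1 to 25.0). The growth hormone gene itself, under the dog entry name SOMA_CANFA, had 1 read in dog (0.0734 CPM). Both receptor genes of this family thus had their highest level in armadillo, though PRLR was not called different in either pair. Of all matched genes, 13.3% were called higher in armadillo than in dog and 36.1% higher in armadillo than in platypus. The stromal markers, with dog entry names added, summed to 3361 CPM in dog (4 of 6 listed), 21829 CPM in armadillo (6 of 6) and 6974 CPM in platypus (5 of 6), with none at 0.

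The 4 stromal markers listed in all libraries did not take the order of GHR one by one. The collagen gene COL3A1 had 535 CPM in dog, 7623 CPM in armadillo and 294 CPM in platypus, and COL1A1, under its dog entry name, was highest in dog. LUM (lumican) had 91.4 CPM in dog, 333 CPM in armadillo and 1250 CPM in platypus, and DCN (decorin), under its dog entry name, was also highest in platypus. The part of stroma in the GHR levels was not tested.

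Within the dog library the members fell into separate ranges per length. OXTR, at a relative abundance of 40.0 (95% interval 37.5 to 42.6), and RXFP1, at 33.5 (31.8 to 35.2), followed relaxin, and the intervals of these 3 genes did not overlap. GHR at 0.667 (0.446 to 0.957) and GJA1 at 0.626 were not distinguishable by their intervals. PRLR was lower, at 0.265 (0.132 to 0.475), with an interval that overlapped those of GHR and GJA1.

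The members were then counted against all genes. A call of different needed a fold of at least 4 in CPM + 1 and at least 5 CPM in the higher library. Between dog and armadillo 3 members were matched by the rule: RXFP1 was called higher in dog and GJA1 higher in armadillo. Among the 8908 genes matched between these tables, 12.6% were called higher in dog and 13.3% higher in armadillo.

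Between dog and platypus 5 members were matched, of which OXTR was called higher in dog and GJA1 higher in platypus. The shares over 9073 matched genes were 32.0% higher in dog and 9.91% higher in platypus. Between armadillo and platypus 5 members were matched, of which GHR was called higher in armadillo and RXFP1 higher in platypus. The shares over 7296 matched genes were 36.1% higher in armadillo and 11.0% higher in platypus. Each library enters 2 of the comparisons, so they are not independent, and with 3 to 5 members a count of 1 in each direction is not set apart from these shares.

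Scaling changed the size of the folds and, by the median of ratios, no call. Factors from the median of ratios over 3496 genes shifted the log2 ratio of CPM, with no pseudocount, by -0.32 for dog over armadillo, -0.59 for dog over platypus and -0.27 for armadillo over platypus. With this scaling the RXFP1 ratio of dog over armadillo was 171-fold and the OXTR ratio of dog over platypus 107-fold. GJA1 was then 225-fold higher in armadillo than in dog, and GHR 4.35-fold higher in armadillo than in platypus, close to the 4-fold limit. The RXFP1 difference between dog and platypus widened to 2.39-fold, higher in platypus.

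**Figure D3:**
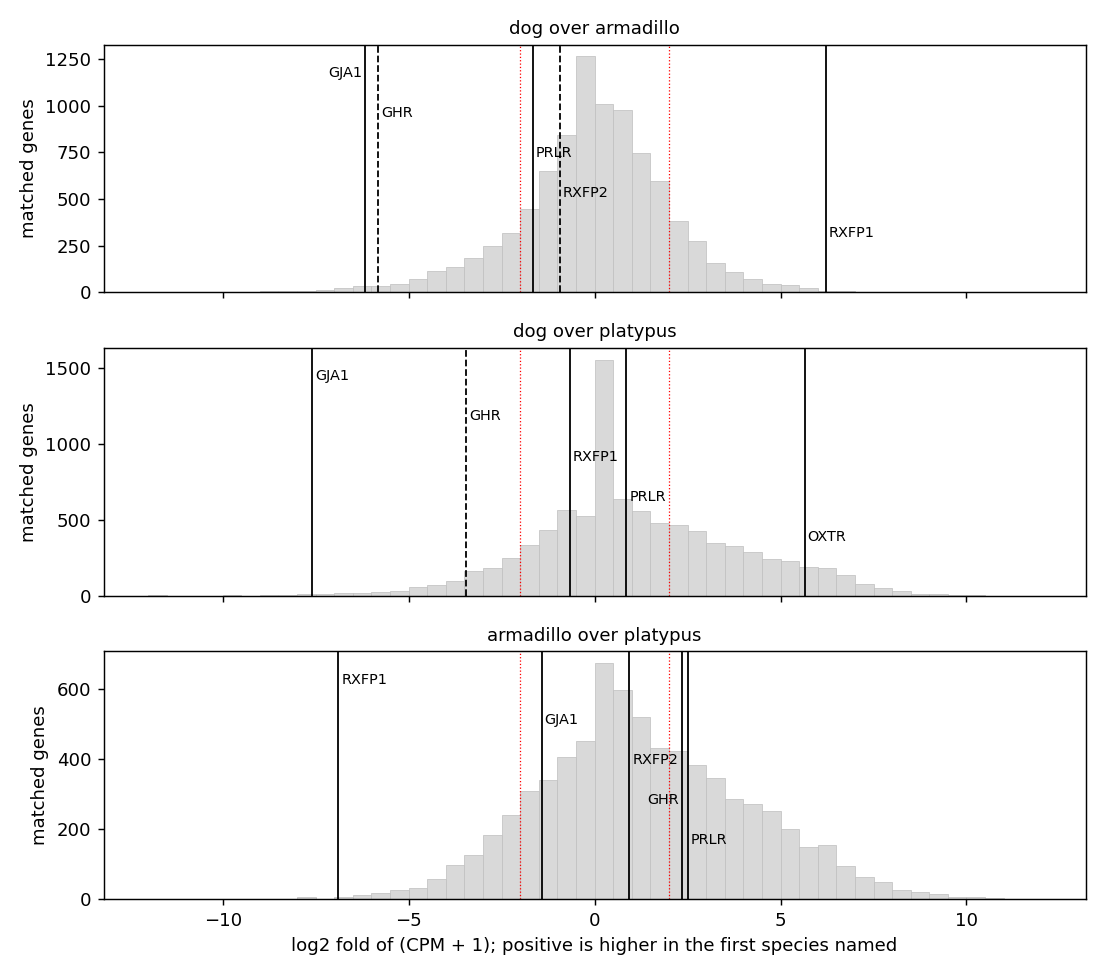
Log2 folds of CPM + 1 for the members (vertical lines, dashed where the dog gene was found under a UniProt entry name) over the distribution of all matched genes (grey bars, bins of 0.5) in each pair of species, with dotted lines at 4-fold. RXFP1 lies far to the right for dog over armadillo and far to the left for armadillo over platypus, GJA1 lies far to the left in both dog comparisons, PRLR lies past the line for armadillo over platypus but was below 5 CPM, and OXTR lies to the right for dog over platypus.

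The signalling genes around these receptors were described from lists, with the members left out. In the cyclic AMP arm, which carries the RXFP1 signal, 1 of 14 matched genes was called higher in dog and 5 in armadillo. The shares over all matched genes were 12.6% and 13.3%. The median log2 fold was -0.77 for dog over armadillo, against 0.00 over all matched genes. GNAS, the stimulatory G protein subunit gene, stood at 2003 CPM in dog, 3345 CPM in armadillo and 128 CPM in platypus. The adenylyl cyclase gene ADCY9 had 25.2 CPM in dog, 144 CPM in armadillo and 6.24 CPM in platypus. PDE4B, which encodes a phosphodiesterase that breaks down cyclic AMP, had 8.44 CPM in dog, 96.1 CPM in armadillo and 0.891 CPM in platypus.

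GNAO1, the gene of an inhibitory-type G protein subunit, had 0.0734 CPM in dog, 29.7 CPM in armadillo and 0.891 CPM in platypus. These 4 genes, named for the widest range over the libraries, were highest in armadillo, and others of the list were not. GNAI3 (99.1 CPM in dog, 114 CPM in armadillo and 1573 CPM in platypus), GNAI1 and PRKACB were highest in platypus, and CREB1 and PRKAR2A were highest in dog. Of the matched genes of this arm, 4 of 14 were called higher in dog and 3 in platypus (median 0.11 against 0.61 over all genes). The shares over all matched genes of that pair were 32.0% and 9.91%. Between armadillo and platypus 7 of 15 were called higher in armadillo and 3 in platypus (median 0.88 against 1.06), beside 36.1% and 11.0%.

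In the calcium and contraction arm, below OXTR, 0 of 12 matched genes were called higher in dog and 3 in armadillo. Those higher in armadillo were MYLK, PLCB2 and PLCB4. The shares over all matched genes were 12.6% and 13.3%. The median was -1.67 for dog over armadillo, against 0.00 over all matched genes. MYLK, the myosin light chain kinase gene that drives smooth muscle contraction, had 44.8 CPM in dog, 1339 CPM in armadillo and 173 CPM in platypus. The phospholipase C genes split: PLCB3 had 287 CPM in dog, 121 CPM in armadillo and 3.12 CPM in platypus, whereas PLCB4 had 0.807 CPM in dog, 62.9 CPM in armadillo and 54.4 CPM in platypus. RGS2, which encodes an inhibitor of Gq signalling, had 12.2 CPM in dog, 45.2 CPM in armadillo and 253 CPM in platypus.

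Against platypus, 2 of 10 matched genes of this arm were called higher in dog (ITPR3 and PLCB3) and 4 in platypus. The shares over all matched genes were 32.0% and 9.91%. The median was -0.79 for dog over platypus, against 0.61 over all genes. Between armadillo and platypus 5 of 13 were called higher in armadillo and 1, RGS2, in platypus, beside 36.1% and 11.0% of all matched genes. The median was 1.48, against 1.06 over all genes. The smooth muscle markers given above differed in the same direction as MYLK between dog and armadillo, and their part in these counts was not tested. MYL9 belongs to both this arm and those markers, and was among the 4 genes called higher in platypus than in dog.

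In the JAK-STAT list, below PRLR and GHR, the counts of called genes were small and, with 8 to 11 matched genes, are not set apart from the shares over all matched genes. Between dog and armadillo 0 of 11 were called higher in dog and 1 in armadillo (PIAS3), beside 12.6% and 13.3% of all matched genes. The median was -0.44, against 0.00 over all genes. JAK2, the kinase bound to PRLR and GHR, had 95.2 CPM in dog, 60.8 CPM in armadillo and 10.7 CPM in platypus. CISH, a STAT5 target that dampens the signal, had 14.0 CPM in dog, 10.3 CPM in armadillo and 26.7 CPM in platypus.

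PTPN11, a phosphatase gene, had 102 CPM in dog, 86.7 CPM in armadillo and 139 CPM in platypus, and the adaptor gene GRB2 had 58.6, 94.4 and 170 CPM in dog, armadillo and platypus. Against platypus, 2 of 8 genes were called higher in dog and 1 in platypus, beside 32.0% and 9.91% of all matched genes. The median was 0.11, against 0.61 over all genes. Between armadillo and platypus 2 of 8 were called higher in armadillo and 0 in platypus (median -0.40, against 1.06 over all genes), beside 36.1% and 11.0%. JAK-STAT genes at 2 CPM or more numbered 17 of 18 listed in dog, 15 of 15 in armadillo and 10 of 12 in platypus.

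**Figure D4:**
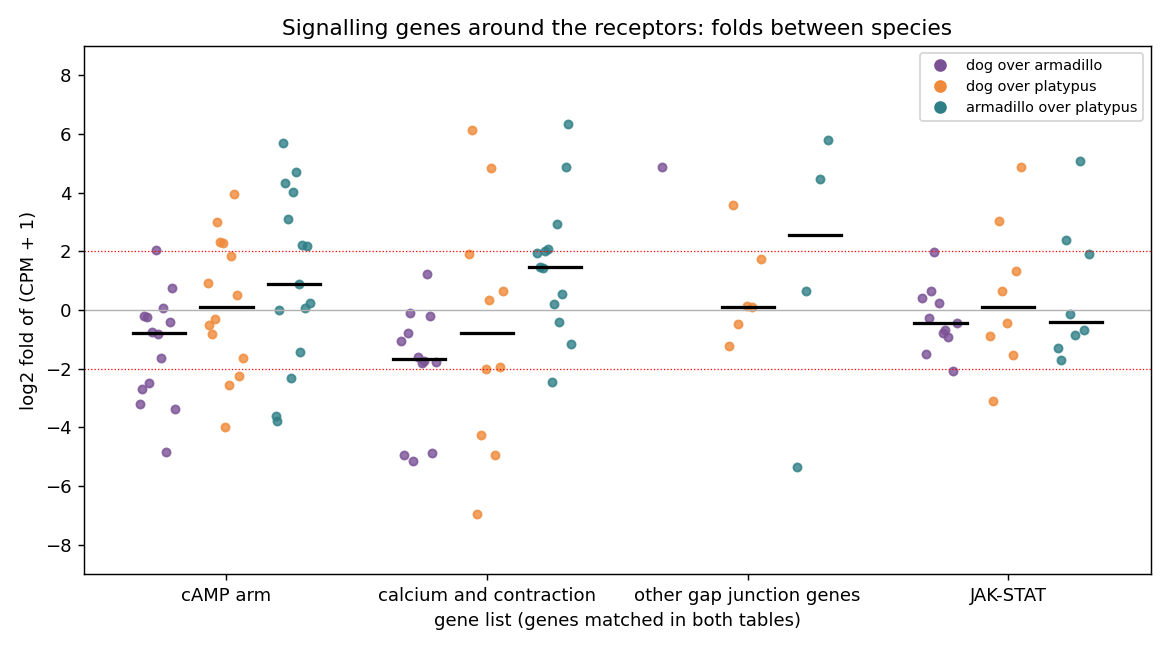
Log2 folds of CPM + 1 for the genes of 4 signalling lists (points, 1 per matched gene, members left out) in each pair of species, with black bars for medians and dotted lines at 4-fold. The dog over armadillo points of the cyclic AMP and contraction lists lie mostly below 0, with medians of -0.77 and -1.67, while the JAK-STAT medians lie between -0.44 and 0.11.

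Among the other gap junction genes reported here, only GJB1 was matched between dog and armadillo. It was called higher in dog, beside 12.6% of all matched genes. Between dog and platypus 1 of 6 matched genes (GJB6) was called higher in dog and 0 in platypus, beside 32.0% and 9.91%. Between armadillo and platypus TJP1 and GJA5 were called higher in armadillo and GJB1 in platypus, of 4 matched genes. The shares over all genes there were 36.1% and 11.0%. With so few matched genes these counts are not set apart from the shares.

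The genes most like each member were named by the Euclidean distance of log2(CPM + 1) over the 3 libraries, among 6385 genes matched in all of them. Only RXFP1 and GJA1 could be used. The nearest to RXFP1 were THOC2, which encodes a subunit of an mRNA export complex (distance 0.97), TC2N (0.99) and SNRPF, a gene of the splicing machinery (1.01). SNRPF had 89.5 CPM in dog, 0.681 CPM in armadillo and 93.2 CPM in platypus.

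The nearest to GJA1 were ETF1, which encodes the factor that ends translation (distance 0.58), the RNA-binding protein gene KHDRBS3 (0.66) and the splicing factor gene SF3A3 (0.90). ETF1 had 0.294 CPM in dog, 120 CPM in armadillo and 235 CPM in platypus, and SF3A3 had 0.0734 CPM in dog, 85.6 CPM in armadillo and 236 CPM in platypus. Every cell uses ETF1, SF3A3 and SNRPF, so a level below 1 CPM in 1 of these tables also occurred for genes of general cell function. Whether the low dog value of GJA1 and the low armadillo value of RXFP1 share a source with these genes was not tested.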

How the data were processed

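Per the labels' protocols, column-purified, DNase-treated RNA went into standard Illumina libraries. Bowtie is named in the submitters' processing notes; its version, the builds and the annotation are not given in the sources used. The dog values deposited are estimated counts, of which 516 were not whole and were rounded. The dog table also holds scores that the authors deposited, mapped bases and a relative abundance of unstated unit. Dividing the dog reads by the relative abundance, with 1 constant chosen for this purpose, gave lengths whole within 0.1 bases for 100% of 5260 genes with whole counts over 500, so the relative abundance was taken as per length. The armadillo and platypus tables were deposited as raw read counts.

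Totals were summed over listed genes. Symbols occurring once in a table were matched in upper case, after 82 dog accessions were given symbols from the dog RefSeq gene table. Antisense or near-identical genes could not be separated, since strand and multiple mapping are not stated. Log2 folds used a pseudocount of 1 CPM, which understates folds of low genes, and ratios have exact conditional 95% intervals. Python 3.11.15, scipy 1.17.1, numpy 2.4.6 and pandas 2.3.3 were used, and the calls and intervals were tested on simulated data. Those data held counting error only, and no change was planted in genes of few reads. They therefore did not test the effect of mapping, gene models or spread between animals. Named genes were all members, the listed hormone and receptor genes, up to 4 genes per list with the widest range of log2(CPM + 1), and the 3 nearest genes of a member. List genes called different in counts of up to 5, connexins of interest and genes under entry names were named after their values were seen. Some genes of the lists are not reported here and are left out of the list counts. The members and lists were chosen with earlier results of these data known. The luteal or steroid cell markers summed to 0.0734 CPM in dog and 0.530 CPM in armadillo and were listed at 0 in platypus. The endothelial markers summed to 108 CPM in dog (3 of 6 listed), 9506 CPM in armadillo (4 of 6) and 20.1 CPM in platypus (5 of 6). VWF, TEK, ESAM and PLVAP were listed at 0 in platypus. The platypus sum was thus CDH5 alone, which was not analysed in armadillo. Alternatives covered scaling, pseudocount, filters, genes at 0, entry names and the fold limit.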

Additional observations from a re-analysis of the deposited data

How the results depend on the processing

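The counts of members called 4-fold apart (2 in each pair) and of members at 2 CPM or more (3 in each library) stayed within 1.5 times under 36 alternatives and moved under 3. Requiring 2 CPM in both libraries of a pair left 0 calls for dog over armadillo, 0 for dog over platypus and 1 (GHR) for armadillo over platypus. By its construction this filter removes members that are near 0 in 1 library. Adding rows under UniProt entry names raised the calls to 3 in both dog comparisons through GHR, and raised dog members at 2 CPM to 4. PRLR was called for armadillo over platypus with no minimum level and with totals over matched genes. The 31 alternative log2 folds of CPM + pseudocount for single called members kept their direction, and each moved from its reported value by less than the distance between the log2 ratio of CPM and the end of its 95% interval on that side. No paired analysis was possible because each species has 1 library, and for the same reason no library could be left out. Depth limits the platypus values most: 3 reads there equal 1.34 CPM.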
